A study of Mus musculus with 6 samples.

Results

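The genes of the glutamate receptors and their auxiliary subunits were followed in hippocampal RNA-seq of CBP-ifKO mice and their controls. The members were picked by name from a table of 55471 genes. They are 4 AMPA, 6 NMDA, 5 kainate, 1 delta and 6 metabotropic receptor genes, 5 genes of transmembrane AMPA receptor regulatory proteins (TARPs), 2 cornichon genes, 1 Shisa gene and 2 Neto genes, 32 in all. Each member matched 1 gene identifier and all 32 passed the filter on low counts, the lowest count of any member in a library being 25. The 6 libraries, 3 per group, were made from total RNA of the hippocampus of C57BL/6 mice (C57BL/6J in the study's methods) aged 3 to 6 months. In CBP-ifKO, the floxed Crebbp alleles (Crebbp_flox) were recombined by a tamoxifen-inducible Cre (Camk2a_creERT2) driven in forebrain excitatory neurons. Crebbp encodes CBP, a histone acetyltransferase and coactivator of CREB. Both groups were given tamoxifen, 20 mg/mL in corn oil, in 5 intragastric doses on alternate days, so that the controls share this treatment. Per the treatment protocol, the controls were littermates without the creERT2 transgene, although another label of theirs names Camk2a_creERT2. Per the study's methods, each sample pooled the hippocampi of 3 female mice. The tissue was used whole, so that interneurons, glia and vessel cells that keep CBP are part of every library. A lower level of a transcript in such bulk samples can come from fewer cells of a type or from less RNA per cell, and these cannot be told apart here.

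Glutamate is the main excitatory transmitter of the hippocampus. AMPA receptors are tetramers of GluA subunits that carry fast transmission, NMDA receptors pair the obligatory GluN1 subunit with GluN2 or GluN3 subunits and admit calcium when pre- and postsynaptic activity coincide, and kainate receptors modulate release and excitability. Metabotropic receptors are G protein-coupled: group I raises postsynaptic calcium, and groups II and III mostly restrain transmitter release. TARPs, cornichons, Shisa and Neto proteins bind the ionotropic receptors and set their traffic and gating.

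Crebbp, the targeted gene, was measured at 209, 156 and 208 CPM (TMM-scaled counts relative to the size of the library) in Control replicates 1 to 3 and at 109, 87.1 and 99.4 CPM in CBP-ifKO. It fell to 51.5% of Control (edgeR adjusted p = 3.63e-05), counted over the whole gene and over all cells of the tissue. Esr1, the mouse gene of the receptor whose ligand-binding domain is fused to Cre in creERT2, stood at 6.07 ± 0.36 CPM (SD, n = 3) in Control and 66.7 ± 2.9 CPM in CBP-ifKO. The study describes raised Esr1 as a feature of mice that carry Camk2a-creERT2. The Control libraries, at 5.65 to 6.29 CPM, lacked this rise, which goes with the treatment protocol rather than with their other label. Ep300, the paralogue of Crebbp, stood at 101 ± 17.5 and 114 ± 7.8 CPM and did not pass the test. Total counts ran from 10199008 to 14950257 per library.

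Of the 32 glutamate receptor and auxiliary genes, 9 were lower in CBP-ifKO and 0 were higher at an adjusted p under 0.05 by edgeR's quasi-likelihood test, which is 28.1% of the members lower against 4.99% lower and 1.40% higher among the 17981 genes tested (6.39% in either direction). DESeq2's Wald test called the same 9 genes, where 4.94% of its tested genes were lower. With library totals in place of TMM factors, 5 of them (Cnih2, Grid1, Grin3a, Grm4 and Grm8) were called, against 3.71% of all genes lower. The 9 genes were Cnih2 among the auxiliary subunits, Gria3 among the AMPA subunits, Grin3a among the NMDA subunits, Grik3 and Grik5 among the kainate subunits, Grid1, and Grm3, Grm4 and Grm8 among the metabotropic receptors. Their levels were between 13.4% and 44.1% below Control. The mean was lower in CBP-ifKO for 28 of the 32 members and higher for Gria2, Cacng7, Shisa6 and Neto2, with a median log2 fold change of -0.19 over the members and -0.0033 over all genes tested. In 15 members every CBP-ifKO library lay below every Control library, 46.9% of the list against 13.9% of all genes tested, and in 1, Gria2, every CBP-ifKO library lay above, against 11.8% of all genes. The unadjusted p was under 0.05 for 19 members that were lower, against 2337 of the 17981 genes tested, and for 1 that was higher, Gria2, against 1479 of them. Which libraries entered the fit mattered for these counts. When 1 library was left out, so that a group held 2 samples, edgeR called 6 members without Control replicate 1 (5.2% of all genes being called in that fit), 12 without Control replicate 2 (7.24%) and 2 without Control replicate 3 (2.94%). It called 7 (4.92%), 2 (2.72%) and 1 (2.87%) when CBP-ifKO replicates 1, 2 and 3 in turn were dropped. Cnih2 was called in each of these 6 fits and no member was called higher in any of them.

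**Figure D1:**
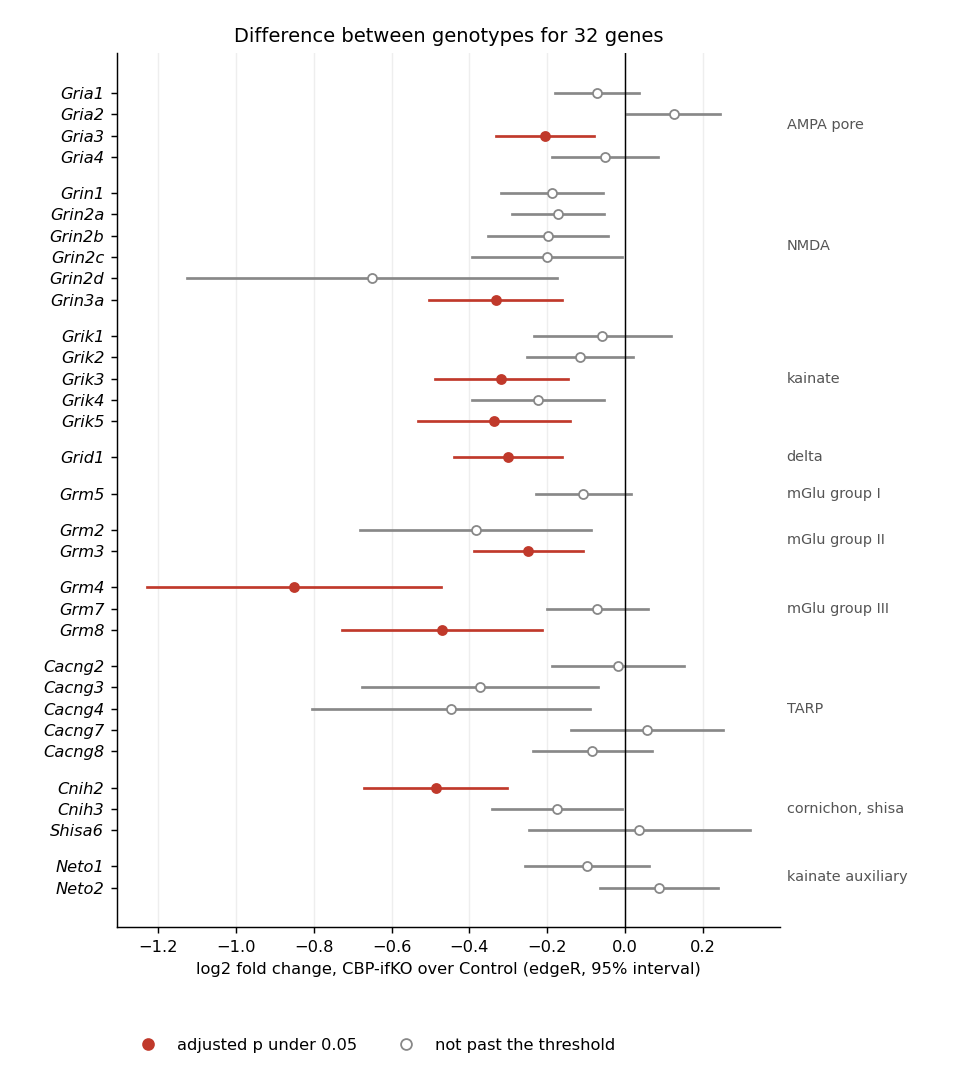
Log2 fold change of each of the 32 genes, CBP-ifKO over Control, with its 95% confidence interval from edgeR (horizontal axis), grouped by receptor family (vertical axis). Filled red points are the 9 genes with an adjusted p under 0.05, all left of 0, and open grey points are the 23 others.

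Markers of cell types and hippocampal fields moved in the same libraries. All 5 CA1 pyramidal markers fell, their summed level running from 466 to 471 CPM in Control and from 309 to 330 CPM in CBP-ifKO, while 0 of 5 general excitatory markers were called by edgeR or DESeq2, 2 having an unadjusted p under 0.05 (2529 to 2943 and 2669 to 3051 CPM). Of the other fields, 2 of 5 CA2 markers (166 to 194 and 107 to 114 CPM) and 1 of 5 CA3 markers (128 to 139 and 109 to 116 CPM) fell, and of 6 dentate granule markers 2 fell and 1 rose (350 to 379 and 354 to 394 CPM). Oligodendrocyte precursor markers fell in 4 of 5 cases (184 to 199 and 144 to 150 CPM) and interneuron markers in 2 of 9, Slc32a1 and Sst (764 to 779 and 695 to 739 CPM). These calls were edgeR's. DESeq2 called 4 CA1, 2 CA2, 1 CA3, 2 dentate, 3 precursor and 1 interneuron marker lower, and 1 dentate marker higher. With trends on GC content and gene length removed, edgeR called 4, 2, 3, 2, 3 and 1 lower, and 1 dentate marker higher. In that fit 1 excitatory marker was lower and 1 higher. None of the 8 astrocyte, 7 oligodendrocyte, 7 microglia, 5 endothelial, 5 thalamus and 4 neocortex markers was called by edgeR or DESeq2, nor any of the 3 choroid plexus markers tested, while 7 of all these had an unadjusted p under 0.05. No marker that was tested was at 0 in a library. The part of these shifts in the values of the receptor genes was not tested.

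The promoter windows of the members, from 250 bases before to 50 after a RefSeq start (GRCm38.p6), were searched on both strands for the CRE bound by CREB, TGACGTCA, its core TGACG, which the full site also contains, and the GC box GGGCGG. There were windows for 20 of the 32 genes, 24 windows in all, 5 of the genes being among the 9 called. The full CRE was in 0 of the 24 and in 1.79% of 32851 windows of the same length over all genes. The core was in 3 of 24, or 12.5%, against 20.8% of all windows, namely those of Grin1, Grik2 and 1 of 3 windows of Grm8. The GC box was in 14 of 24, or 58.3%, against 35.7%, while the windows themselves had a median GC content of 64.2% for the members and 52.7% over all genes. Of other motifs, the AP-1 site TGANTCA was in 1 of 24, a window of Grm8 (7.81% of all windows), and the TATA box TATAAA in 0 of 24 (13.6%). Shown here are the window of Cnih2, the member called in the most fits, and the only window of a called member that holds the CRE core, of Grm8. Both lie on the minus strand and are written 5′ to 3′ along the gene, with GC boxes and CRE cores of either strand in capitals.
Cnih2, chr19:5098472-5098771: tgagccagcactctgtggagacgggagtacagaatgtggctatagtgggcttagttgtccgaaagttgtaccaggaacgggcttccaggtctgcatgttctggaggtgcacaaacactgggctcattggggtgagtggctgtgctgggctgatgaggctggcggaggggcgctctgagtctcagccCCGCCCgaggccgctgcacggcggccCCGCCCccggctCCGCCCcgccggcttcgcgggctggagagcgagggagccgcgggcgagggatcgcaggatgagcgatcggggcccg
Grm8, chr6:28134372-28134671: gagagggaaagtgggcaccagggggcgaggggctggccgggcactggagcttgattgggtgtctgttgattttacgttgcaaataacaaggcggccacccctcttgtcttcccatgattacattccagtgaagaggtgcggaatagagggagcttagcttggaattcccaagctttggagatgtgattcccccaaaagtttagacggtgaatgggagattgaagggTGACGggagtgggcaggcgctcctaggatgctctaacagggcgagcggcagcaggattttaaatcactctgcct
The Cnih2 window holds 3 GC boxes and no CRE core, and the Grm8 window holds 1 core and no GC box.

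Levels between genes are compared per kilobase of the exon length deposited with the counts. Whether that length is that of the transcripts expressed here was not tested, and the order depends on it. It was 6043 bases for Gria1, 15548 for Gria2 and 24842 for Grin2b. Before division by length, their Control means were 1343, 1878 and 2170 CPM, the reverse order. Per kilobase the AMPA subunits led: Gria1 was the most abundant member, at 222 ± 3.8 CPM per kb in Control, followed by Gria2 at 121 ± 3.8. Next came Grin2b at 87.3 ± 10.3 and Cnih2 at 85.9 ± 12.4 CPM per kb, which did not differ beyond their SD, then Grm5 at 70.0 ± 3.8 and Grin2a at 58.9 ± 3.2. The lowest were Grm8 at 2.04 ± 0.31, Grm4 at 1.11 ± 0.17 and Grin2d at 0.543 ± 0.013 CPM per kb. Of the 9 called genes, 3 (Cnih2, Gria3 and Grm3) were among the 9 most abundant members.

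**Figure D2:**
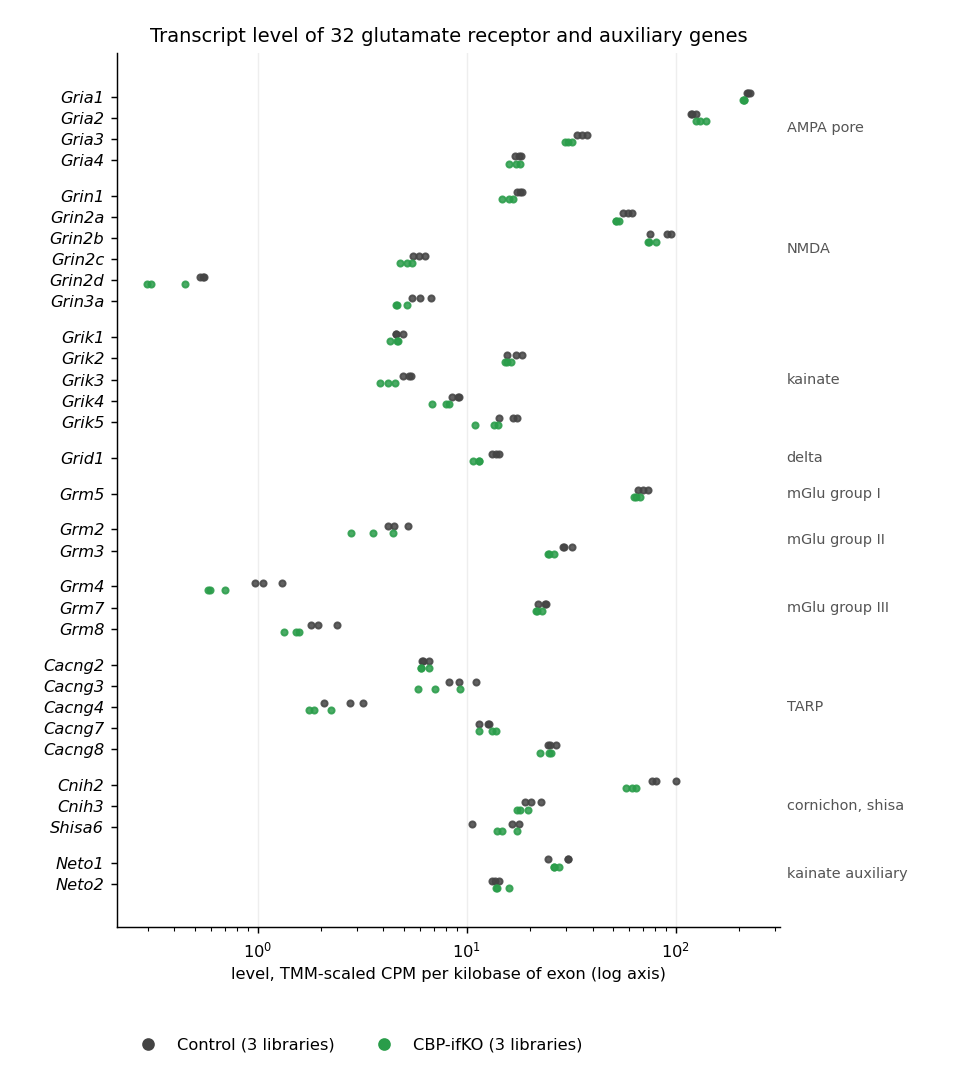
Level of the 32 genes in each library, in TMM-scaled CPM per kilobase of exon on a log axis (horizontal), by gene and family (vertical). Grey points are the 3 Control and green points the 3 CBP-ifKO libraries, and levels span from Grin2d, at 0.543 in Control, to Gria1, at 222.

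Among the AMPA pore subunits, Gria3 fell and the others did not pass the test. Gria3 encodes GluA3 and lies on the X chromosome (chrX:41400854-41678601, GRCm38, plus strand). It stood at 369, 331 and 351 CPM in Control and at 302, 316 and 292 CPM in CBP-ifKO. The groups did not overlap, the nearest libraries being Control replicate 2 and CBP-ifKO replicate 2. Gria3 was 13.4% lower, at -0.21 ± 0.06 (SE) on the log2 scale (edgeR adjusted p = 0.0476). This call sat at the threshold: it held with 1 library left out only where that was Control replicate 2, the adjusted p reaching 0.256 without 1 of the other 5, and it was lost with RLE scaling (0.0552), upper-quartile scaling (0.0747) and library totals alone (0.127).

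Gria2 encodes GluA2, the subunit that makes AMPA receptors impermeable to calcium once its RNA is edited. Its level was 1945, 1831 and 1859 CPM in Control and 1947, 2175 and 2024 CPM in CBP-ifKO. It was the only member with every CBP-ifKO library above every Control library, although CBP-ifKO replicate 1 exceeded Control replicate 1 by under 2 CPM. The log2 fold change of 0.13 had a 95% interval from 0.01 to 0.24 and did not pass the test over all genes (adjusted p = 0.211). Gria1, for GluA1, a subunit that hippocampal pyramidal cells combine with GluA2, was at 1339, 1322 and 1367 CPM in Control and 1288, 1262 and 1282 CPM in CBP-ifKO. Here every CBP-ifKO library was lower, by a log2 fold change of -0.07 (95% interval -0.18 to 0.04), which was not called. Gria4, for GluA4, more a subunit of interneurons and young neurons, ranged from 107 to 115 CPM in Control and from 101 to 113 CPM in CBP-ifKO, so that the groups overlapped. The summed level of the 4 genes was 396 ± 7.1 CPM per kb in Control and 391 ± 6.7 in CBP-ifKO.

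Within a library the balance of the AMPA subunits can be read without scaling between libraries. The log2 ratio of Gria3 to Gria2, from counts per kilobase, was -1.74, -1.81 and -1.75 in Control and -2.03, -2.13 and -2.14 in CBP-ifKO. All 3 CBP-ifKO libraries lay below all 3 Control libraries, with a mean difference of -0.33. For Gria1 to Gria2, the values were 0.82, 0.89 and 0.92 in Control and 0.77, 0.58 and 0.70 in CBP-ifKO. The groups again did not overlap and differed by -0.20. The exact two-sided permutation test gave p = 0.1 for either ratio, the smallest value that 3 libraries against 3 allow, and an adjusted p of 0.267 over the 8 subunit ratios examined. With the GC and length trends removed, Gria1 to Gria2 differed by -0.17 with overlapping libraries (exact permutation p = 0.2). Per kilobase, the share of Gria2 in the 4 transcripts was 30.5% ± 0.6 in Control and 33.7% ± 1.3 in CBP-ifKO, that of Gria3 9.0% ± 0.3 and 7.9% ± 0.2, and that of Gria1 56.1% ± 0.9 and 54.1% ± 1.5.

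All 6 NMDA receptor genes had a lower mean in CBP-ifKO, and Grin3a passed the test. Grin3a (chr4:49661611-49845744, GRCm38, minus strand) encodes GluN3A, a subunit that lowers calcium permeability and is best known from immature synapses. It was measured at 73.1, 67.4 and 82.9 CPM in Control and at 56.5, 63.6 and 56.7 CPM in CBP-ifKO. No CBP-ifKO library reached the lowest Control library, replicate 2. The level was 20.9% lower, with a log2 fold change of -0.33 ± 0.08 (edgeR adjusted p = 0.0213). Leaving out replicate 3 of Control, or replicate 1 or 3 of CBP-ifKO, ended the call, the adjusted p then reaching 0.154.

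The main GluN2 genes, which set the kinetics and the intracellular partners of NMDA receptors, were lower in the mean without passing the test. Grin2a was at 1114, 998 and 1057 CPM in Control and 927, 957 and 928 CPM in CBP-ifKO. The groups did not overlap (log2 fold change -0.17, 95% interval -0.29 to -0.05, edgeR adjusted p = 0.0785). Grin2b was at 2367, 1881 and 2262 CPM in Control and 1997, 1833 and 1846 CPM in CBP-ifKO, with Control replicate 2 below CBP-ifKO replicate 1 (log2 fold change -0.20, 95% interval -0.35 to -0.04, adjusted p = 0.121). Of the 6 fits with 1 library left out, either gene was called by edgeR in 1, that without Control replicate 2 (adjusted p = 0.0166 for Grin2a and 0.00175 for Grin2b). Grin2a was also called by limma-voom (adjusted p = 0.0440), and Grin2b by edgeR without the filter on low counts (0.0136). The log2 ratio of Grin2a to Grin2b, which rises as hippocampal synapses mature, was -0.56 ± 0.10 in Control and -0.54 ± 0.09 in CBP-ifKO, with overlapping libraries and an exact permutation p of 1.0.

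Of the remaining NMDA genes, Grin1, which encodes the obligatory GluN1, ranged from 168 to 179 CPM in Control and from 143 to 161 CPM in CBP-ifKO without overlap (log2 fold change -0.19, edgeR adjusted p = 0.0827). Grin1 shares 13.5% of its exon bases with Grin1os on the other strand, and whether counting used strand was not stated. With trends on GC content and gene length removed, its log2 fold change was -0.00. Grin2c, a subunit known from cerebellar granule cells and astrocytes, ran from 28.0 to 31.8 CPM in Control and 24.3 to 27.7 CPM in CBP-ifKO, and its mean was higher in CBP-ifKO once those trends were removed (log2 fold change 0.04). Grin2d, found mainly in interneurons, was at 3.66, 3.52 and 3.67 CPM in Control and at 3.00, 1.97 and 2.06 CPM in CBP-ifKO. Its groups did not overlap, and the log2 fold change of -0.65 had a 95% interval from -1.13 to -0.17 (edgeR adjusted p = 0.0994). With the GC and length trends removed, the estimate for Grin2d was -0.33 (adjusted p = 0.461). Gm45441, on the other strand, covers 9.66% of the exon bases of Grin2d. Summed per kilobase, the 6 genes stood at 177 ± 13.5 in Control and 155 ± 3.8 in CBP-ifKO.

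All 5 kainate receptor genes had a lower mean, and Grik3 and Grik5 were called. Grik5 (chr7:25009849-25072346, GRCm38, minus strand) encodes GluK5, a high-affinity subunit that needs a GluK1 to GluK3 partner to form channels. It stood at 86.1, 74.0 and 90.3 CPM in Control and at 72.6, 56.6 and 69.7 CPM in CBP-ifKO. Replicate 2 was the lowest library of either group, and Control replicate 2 lay just above CBP-ifKO replicate 1. Grik5 was 20.6% lower, a log2 fold change of -0.34 ± 0.09 (edgeR adjusted p = 0.0390). With the GC and length trends removed it was -0.12 (adjusted p = 0.564), and with library totals alone the adjusted p was 0.0614. Grik3 (chr4:125490700-125714173, GRCm38, plus strand), for GluK3, a presynaptic and low-affinity subunit, was at 47.6, 44.4 and 48.4 CPM in Control and 40.8, 34.5 and 37.7 CPM in CBP-ifKO. Its groups did not overlap, and the level was 19.5% lower (log2 fold change -0.32 ± 0.08, adjusted p = 0.0269). The adjusted p was 0.0564 with the GC and length trends removed and 0.0537 with library totals alone. Either call was lost when replicate 1 or 3 of Control, or replicate 2 or 3 of CBP-ifKO, was dropped, the adjusted p reaching 0.149 for Grik3 and 0.205 for Grik5, where the smallest log2 fold change of Grik5 was -0.22.

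The other kainate subunits showed smaller differences. Grik2, for GluK2, had the highest mean of the family per kilobase in Control, at 17.1 ± 1.3 CPM per kb, within the SD of Grik5 at 16.2 ± 1.6. It was at 243, 207 and 228 CPM in Control and 202, 217 and 207 CPM in CBP-ifKO, with overlap (95% interval of the log2 fold change -0.25 to 0.02). Grik1, for GluK1, was at 31.0, 33.4 and 30.8 CPM in Control and 31.4, 31.4 and 28.8 CPM in CBP-ifKO, and its log2 ratio to Grik2 differed between the groups by 0.06 (exact permutation p = 0.7). Grik4, for GluK4, a high-affinity subunit of CA3 mossy fibre synapses, ranged from 50.9 to 54.9 CPM in Control and from 40.7 to 49.2 CPM in CBP-ifKO, without overlap and without passing the test (adjusted p = 0.113 by edgeR). Neto1 and Neto2, the auxiliary subunits of kainate receptors, did not pass edgeR's main test. Neto1 was at 256, 204 and 254 CPM in Control and 231, 219 and 217 CPM in CBP-ifKO. Control replicate 2 was its lowest library, and without it edgeR called Neto1 lower (log2 fold change -0.19, adjusted p = 0.0467). Neto1 was also called by edgeR with a replicate block and the GC and length trends removed (adjusted p = 0.0473). Neto2 was at 88.0, 80.6 and 83.6 CPM in Control and 85.5, 97.7 and 84.3 CPM in CBP-ifKO. Only CBP-ifKO replicate 2 stood above all Control libraries, and the log2 ratio of Neto2 to Neto1 differed by 0.17 (exact permutation p = 0.3). The 95% intervals of the log2 fold change were -0.26 to 0.06 for Neto1 and -0.06 to 0.24 for Neto2.

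Grid1 (chr14:34820108-35583379, GRCm38, plus strand) encodes the delta receptor GluD1, which does not open to glutamate like the others but bridges the synapse to presynaptic neurexins through cerebellins. It was at 78.4, 84.9 and 82.2 CPM in Control and at 67.9, 63.6 and 68.0 CPM in CBP-ifKO. The groups were well apart, with over 10 CPM between the nearest libraries. Grid1 was 18.7% lower (log2 fold change -0.30 ± 0.07, edgeR adjusted p = 0.0108), and the adjusted p rose to at most 0.0714 when replicate 3 of Control, or replicate 2 or 3 of CBP-ifKO, was left out.

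The metabotropic receptors held both the strongest fall of a member and several genes that did not pass the test. Grm4 (chr17:27422387-27521403, GRCm38, minus strand) encodes mGlu4, a presynaptic group III receptor. It was low, at 5.82, 7.82 and 6.35 CPM in Control and 4.17, 3.55 and 3.46 CPM in CBP-ifKO. Every CBP-ifKO library lay below every Control library. The level was 44.1% lower, with a log2 fold change of -0.85 ± 0.18 (edgeR adjusted p = 0.00801). Dropping replicate 2 or 3 of CBP-ifKO took the adjusted p over 0.05, to at most 0.0565. Grm8 (chr6:27275119-28135178, GRCm38, minus strand), for mGlu8, another presynaptic group III receptor, was at 17.7, 23.6 and 19.1 CPM in Control and 15.1, 13.3 and 15.6 CPM in CBP-ifKO. Its groups did not overlap, Control replicate 2 being the highest and CBP-ifKO replicate 2 the lowest library. The log2 fold change was -0.47 ± 0.12 (adjusted p = 0.0290). Grm8 passed with 1 library left out only where that was Control replicate 1, and the adjusted p reached 0.159 without 1 of the others. Grm7, for mGlu7, the most abundant group III receptor per kilobase, was at 140.5, 129 and 139 CPM in Control and 126, 135 and 127 CPM in CBP-ifKO. These libraries overlapped, and the 95% interval of its log2 fold change was -0.20 to 0.06.

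In group II, edgeR's main test called Grm3 and not Grm2. Grm3 (chr5:9485541-9725170, GRCm38, minus strand) encodes mGlu3, present on neurons and strongly on astrocytes. It was at 88.4, 88.7 and 97.0 CPM in Control and at 75.9, 80.0 and 74.6 CPM in CBP-ifKO. The groups did not overlap, and the log2 fold change was -0.25 ± 0.07 (edgeR adjusted p = 0.0332). The call was kept only without Control replicate 1 or Control replicate 2 among the fits with 1 library left out, the adjusted p reaching 0.201, and was lost with library totals alone (0.0775). Grm2, for mGlu2, was at 21.9, 25.5 and 20.5 CPM in Control and 21.8, 13.7 and 17.4 CPM in CBP-ifKO. CBP-ifKO replicate 1 lay among the Control libraries and the other two below them (95% interval of the log2 fold change -0.68 to -0.09, adjusted p = 0.120). Without the filter on low counts edgeR called Grm2 lower (adjusted p = 0.0250), as it did without CBP-ifKO replicate 1 (0.0275). An antisense gene, Gm28111, covers 9.6% of the exon bases of Grm2. The log2 ratio of Grm3 to Grm2 was 2.70 ± 0.22 in Control and 2.83 ± 0.38 in CBP-ifKO (exact permutation p = 0.6). Group I was present as Grm5, for mGlu5, the main postsynaptic metabotropic receptor of pyramidal cells, which ran from 679 to 757 CPM in Control and from 645 to 693 CPM in CBP-ifKO, with overlap.

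**Figure D3:**
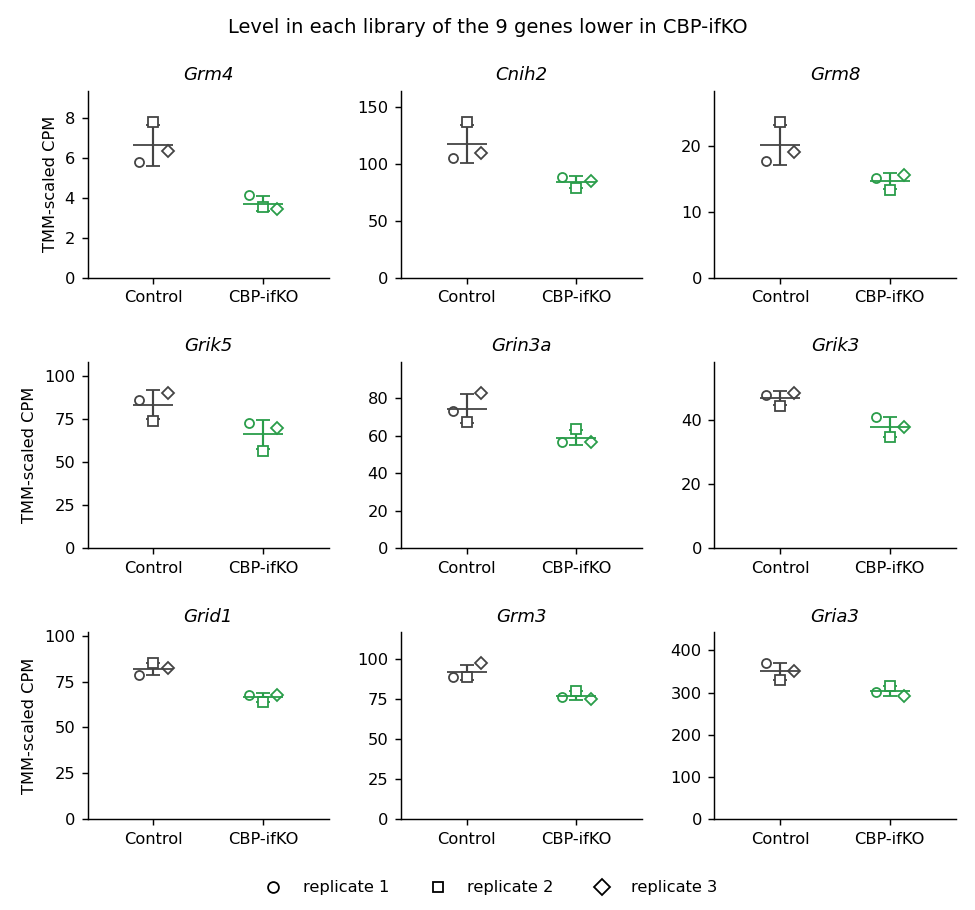
TMM-scaled CPM of each of the 9 called genes in the 3 Control (grey) and 3 CBP-ifKO (green) libraries, with replicate numbers as symbols, the mean as a horizontal bar and the SD as whiskers. In every panel the green symbols lie below the grey ones, the closest case being Grik5, at 74.0 in Control replicate 2 and 72.6 in CBP-ifKO replicate 1.

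Among the auxiliary subunits of AMPA receptors, Cnih2 had the smallest adjusted p of all members. Cnih2 (chr19:5092868-5098521, GRCm38, minus strand) encodes cornichon 2, which helps AMPA receptors leave the endoplasmic reticulum and slows their closing. It was at 106, 137 and 110.2 CPM in Control and at 88.7, 78.8 and 84.9 CPM in CBP-ifKO. All CBP-ifKO libraries were lower, and Control replicate 2 stood above the others. The level was 28.5% lower, with a log2 fold change of -0.49 ± 0.09 (edgeR adjusted p = 0.00269). The call held in each fit with 1 library left out, with an adjusted p of at most 0.0313. The log2 fold change was -0.26 (adjusted p = 0.0151) once trends on GC content and length were removed, the GC content of Cnih2 being 62.3%.

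Its paralogue Cnih3, which also binds AMPA receptors, was at 56.0, 62.3 and 52.2 CPM in Control and 49.5, 48.0 and 53.9 CPM in CBP-ifKO. One CBP-ifKO library, replicate 3, exceeded a Control library, and the 95% interval of the log2 fold change was -0.34 to -0.01 (edgeR adjusted p = 0.217). The log2 ratio of Cnih3 to Cnih2 was -1.92, -2.14 and -2.09 in Control and -1.85, -1.72 and -1.66 in CBP-ifKO. The ratio was higher in every CBP-ifKO library, by 0.31 in the mean, with an exact permutation p of 0.1, the smallest possible, and 0.267 after adjustment over the 8 ratios. With the GC and length trends removed, the difference was 0.10 and the exact permutation p was 0.3. Shisa6, which keeps AMPA receptors from desensitising, was at 123, 78.8 and 133 CPM in Control and ran from 104 to 130 CPM in CBP-ifKO. Control replicate 2 stood apart from the other Control libraries. The log2 fold change of Shisa6 was 0.04 and turned to -0.15 without Control replicate 2 and to -0.06 without CBP-ifKO replicate 1, its sign not being settled by these libraries.

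By edgeR's test no TARP gene was called, nor by DESeq2, although Cacng3 and Cacng4 had an unadjusted p under 0.05. Without the filter on low counts Cacng3 was called (adjusted p = 0.0217), as it was without CBP-ifKO replicate 1 (0.0247), and Cacng4 was called without Control replicate 2 (0.0232). Cacng8, for TARP γ-8, the hippocampal TARP and the most abundant of the 5 per kilobase, was at 57.7, 63.0 and 58.8 CPM in Control and 58.2, 52.4 and 59.2 CPM in CBP-ifKO, with overlap. The 95% interval of its log2 fold change was -0.24 to 0.07, and the estimate moved from -0.08 to 0.21 once the GC and length trends were removed. Cacng3, for γ-3, was at 25.5, 22.9 and 30.6 CPM in Control and 25.9, 16.3 and 19.5 CPM in CBP-ifKO. CBP-ifKO replicate 1 lay among the Control libraries, and the log2 fold change of -0.37 had an interval from -0.68 to -0.07 (edgeR adjusted p = 0.140). The log2 ratio of Cacng3 to Cacng8 differed by -0.29 (exact permutation p = 0.3), by -0.17 to -0.45 when 1 library was left out, the smallest without Control replicate 3 and the largest without CBP-ifKO replicate 1, and by -0.53 with the GC and length trends removed (exact permutation p = 0.1). Cacng4, for γ-4, ranged from 7.39 to 11.5 CPM in Control and from 6.31 to 8.06 CPM in CBP-ifKO. Cacng2, for γ-2 or stargazin, ranged from 33.8 to 36.4 CPM and from 33.3 to 36.4 CPM. Cacng7, for γ-7, ranged from 28.0 to 31.1 CPM and from 28.0 to 33.7 CPM. Of these, Cacng4 had a log2 fold change of -0.45 (interval -0.81 to -0.09, adjusted p = 0.133), while the intervals for Cacng2 (-0.19 to 0.15) and Cacng7 (-0.14 to 0.25) held 0.

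GC content ran along with the size of the differences. Over the 32 members, the log2 fold change and transcript GC content (taken from the longest transcript of a gene) had a Spearman rho of -0.48, and over 17956 genes tested it was -0.29. These genes come from the same 6 libraries, so that the values are descriptions. With per-library trends on GC content and length removed, rho over the members was -0.07, the median log2 fold change was -0.16 in place of -0.19, and 26 members had a lower mean. In that fit 9 members were called, all lower, with 4.79% of all genes lower. Grin2a (adjusted p = 0.0200 by edgeR) and Grin2b (0.0401) came in and Grik3 and Grik5 dropped out, while 7 of the 9 were shared. The median GC content was 49.9% for the called and 49.5% for the other members, and 48.3% for all genes tested. What part the GC trend has in the values of single members was not tested beyond these fits.

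**Figure D4:**
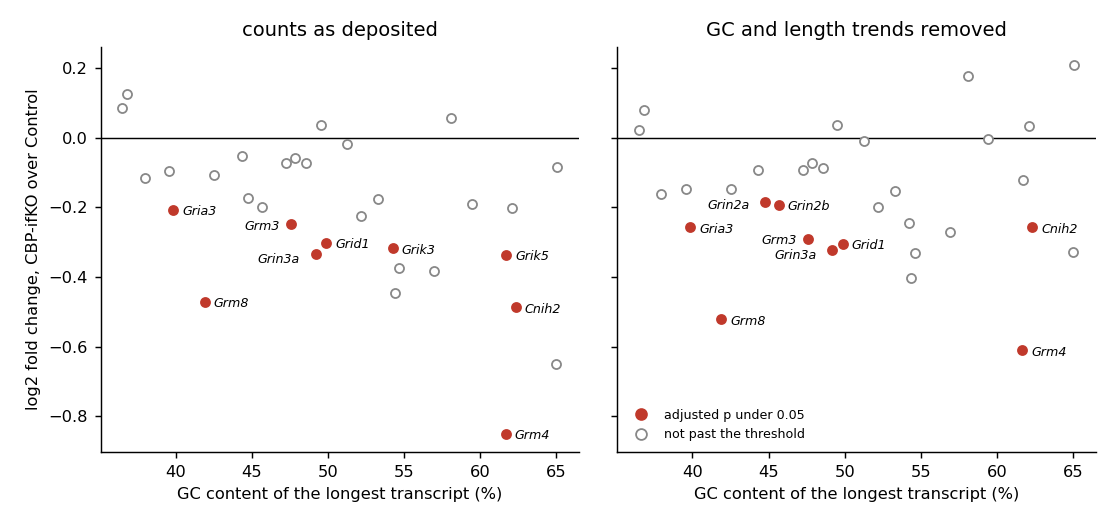
GC content of the longest transcript (horizontal axis, %) against the log2 fold change, CBP-ifKO over Control (vertical axis), for the 32 members with the counts as deposited (left) and with trends on GC content and length removed (right). Filled red points have an adjusted p under 0.05; Spearman's rho was -0.48 on the left and -0.07 on the right.

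The proteins that assemble, move and anchor the receptors were examined in the same fit. Of 18 genes of AMPA receptor assembly and trafficking, 6 fell and 0 rose by edgeR's test, with 4.99% lower and 1.40% higher among all genes tested, and the median log2 fold change was -0.19. Olfm1, another olfactomedin, stood higher in every CBP-ifKO library, with 761 ± 25.5 CPM against 672 ± 20.5 in Control (log2 fold change 0.18, adjusted p = 0.0595), and was called higher by DESeq2 (0.0160) and by edgeR with the GC and length trends removed (0.00413). Nptx2, for a secreted pentraxin that clusters AMPA receptors, fell from 11.6 ± 3.0 to 5.21 ± 1.29 CPM (log2 fold change -1.19, edgeR adjusted p = 0.00152). Olfm2, for an AMPA receptor-associated olfactomedin, fell from 13.7 ± 1.6 to 8.73 ± 2.08 CPM (-0.67, adjusted p = 0.0174). Prrt1, for a receptor-associated protein also called SynDIG4, fell from 27.3 ± 1.8 to 20.4 ± 0.9 CPM (-0.42, adjusted p = 0.0118), and Nptxr, for the pentraxin receptor, from 505 ± 16.2 to 404 ± 48.4 CPM (-0.32, adjusted p = 0.0139). Nsg1 and Nsf were the others. Nptxr shares 17.2% of its exon bases with Npcd on the same strand, and Nsg1 17.9% with Stx18 on the other strand. With 1 library left out, Nptx2 was called in all 6 fits, whereas Olfm2 (adjusted p up to 0.126) and Prrt1 (up to 0.0753) were lost without CBP-ifKO replicate 2 or 3 and Nptxr (up to 0.0823) without Control replicate 3 or CBP-ifKO replicate 2, and Prrt1 (adjusted p = 0.237) and Nptxr (0.179) were not called with the GC and length trends removed.

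Of 14 postsynaptic scaffold genes, 7 fell and 0 rose by edgeR's test, against the same 4.99% lower and 1.40% higher of all genes, with a median log2 fold change of -0.22. DESeq2 called 6 lower, and 4 were lower with the GC and length trends removed. Dlgap3 fell from 86.5 ± 11.2 to 56.9 ± 4.3 CPM (log2 fold change -0.61, edgeR adjusted p = 0.000588) and Dlgap4 from 98.2 ± 7.5 to 66.3 ± 9.9 CPM (-0.57, adjusted p = 0.00133). Both encode proteins that link PSD-95 to the Shank layer. Shank1 fell from 221 ± 42.7 to 156 ± 24.8 CPM (-0.50, adjusted p = 0.0175) and Shank3 from 98.1 ± 5.8 to 71.2 ± 10.2 CPM (-0.47, adjusted p = 0.00427). Dlg4, which encodes PSD-95, Shank2 and Dlgap1 also fell. With 1 library left out, Dlgap3, Dlgap4, Shank3 and Dlg4 were called in all 6 fits. Shank1 (adjusted p up to 0.133), Shank2 (up to 0.207) and Dlgap1 (up to 0.170) were lost when replicate 1 or 3 of Control, or replicate 2 or 3 of CBP-ifKO, was dropped. Shank1 (adjusted p = 0.229 by edgeR), Shank2 (0.119) and Shank3 (0.0755) were not called with the GC and length trends removed, nor Shank1 by DESeq2 (0.151). None of 12 genes of glutamate transport and metabolism was called by edgeR or DESeq2, 1 having an unadjusted p under 0.05, and their median log2 fold change was -0.05. Nor did either test call any of the 9 tested of 13 further receptor and auxiliary paralogues, of which 3 had an unadjusted p under 0.05 (median -0.02). Of the paralogues, Grm6, Grin3b, Cacng1 and Shisa8 were not tested, their counts being between 0 and 7 per library.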

How the data were processed

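Total RNA of the hippocampus was sequenced in 3 Control and 3 CBP-ifKO samples, grouped by their titles (single-end, 50 bp). Per the labels and the study's methods, the authors trimmed reads with Trim Galore 0.6.4, aligned them with STAR 2.6.1 to mm10 (GRCm38), kept those of sufficient mapping quality, which removes reads shared by near-identical genes, and counted them over Ensembl exons with Rsubread. They deposited raw counts per gene with the exon length of each gene in bases, with no normalization. The strand setting was not stated. Symbols, coordinates and GC content came from GENCODE M21 (GRCm38), which matched 99.57% of the identifiers.

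Genotypes were compared with edgeR 4.0.16 (R 4.3.3): TMM scaling, filterByExpr (minimum count 10, minimum total 15), quasi-likelihood F-test, Benjamini-Hochberg adjustment over all genes tested, threshold 0.05. The SE of a log2 fold change is its size over the square root of F. Levels are TMM-scaled CPM, mean ± SD. The log2 ratios of 2 members within a library, from counts per kilobase, were compared by the exact permutation test. Alternatives were DESeq2 1.42.0, limma-voom (3.58.1), robust dispersions, other scalings and filters, per-library splines on GC content and length (5 degrees of freedom), a replicate block and leaving out each library. The coefficient of variation between libraries was 6.81%, and the pools of a group differed by more than sampling noise. Nothing else is known of how the pools were drawn. The p-values set the difference between groups against the variation between pools, not between single mice.

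The members, gene lists and tests were chosen with earlier results of these data known. Per-library values are given for members past the threshold, for the most abundant member per kilobase of each family with more than 1 member and for members of a ratio; Grin2d and Shisa6 were given so after their values were seen, and other members are given by range. Of each related list, at most the 4 called genes with the largest change are given with levels, and those not tested with counts. Olfm1 is given besides these, although edgeR's main test did not call it. The list of signalling genes downstream of the receptors is not reported here.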

Additional observations from a re-analysis of the deposited data

How the results depend on the processing

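The direction was kept for most members: over the fits with all libraries, 325 comparisons of a member with its main value gave the same direction and the same side of the threshold, 12 newly passed it, 10 no longer passed it and 5 changed sign, and with 1 library left out these were 150, 6, 30 and 6. Cnih2 was called in all of the alternatives run at an adjusted p under 0.05. With library totals alone, 5 members in 4 families were called and Cacng2 turned to 0.0282 on the log2 scale. Removing GC and length trends turned Grin2c to 0.036, Cacng8 to 0.209 and the difference in log2 Grm3/Grm2 to -0.0304. Without a filter on low counts, 12 members were called, with 4.31% of all genes. Requiring an adjusted p under 0.01 left 476 genes, 2 members in 2 families and 8 genes of the related lists. Testing against a log2 fold change of 0.2 left 294 genes, 2 members in 2 families (Cnih2 and Grm4) and 4 genes of the related lists. Leaving out 1 library gave 498 to 1326 genes, 1 to 12 members in 1 to 9 families and 7 to 21 genes of the related lists, with log2 differences from -0.0580 to 0.0173 for Cacng2, -0.0816 to 0.00389 for Gria4, -0.15 to 0.18 for Shisa6, -0.013 to 0.155 for log2 Grik1/Grik2, -0.017 to 0.080 for log2 Grin2a/Grin2b and -0.066 to 0.308 for log2 Grm3/Grm2. Such fits hold fewer samples; otherwise the cause was not tested.

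The deviations of equally numbered samples correlated at 0.079, 0.037 and -0.001, so that the numbers were not taken as pairs. With the replicate number as a block, 1210 genes (6.73%) and 8 members were called, Gria3 having an adjusted p of 0.0514. The block with GC and length trends removed gave 1862 genes (10.4%), 15 members, 1 of them higher (Cacng8, 0.211), and 24 genes of the related lists, with Grin2c at 0.038. For the ratios the smallest exact p under the block is 0.25.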
